A study of Homo sapiens with 12 samples.

Results

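The genes described here are those of cholesterol and fatty acid synthesis, followed in human alpha cells under endoplasmic reticulum (ER) stress. They are 29 of the 28278 gene rows of a raw count table, chosen by symbol, and all 29 were among the 17137 genes that passed the filter on low counts. They comprise 5 regulators, 6 enzymes of the mevalonate pathway, 10 enzymes that turn its product into cholesterol, 1 sterol carrier and 7 enzymes of fatty acid synthesis. The cells were alpha cells, which secrete glucagon in the pancreatic islet, differentiated from HUES-8, a human embryonic stem cell line. The 6 tunicamycin samples had received 5 uM of the drug, an inhibitor of N-glycan assembly that causes ER stress, and the 6 DMSO samples only its solvent, for 48 h in 30 mL bioreactors turning at 40 rpm. Samples carry the numbers 1 to 6 in each group, and numbers 1 to 3 and 4 to 6 form sequencing batches 1 and 2. The labels call the samples biological replicates. All samples come from 1 cell line, and no source used here says whether each numbered replicate was a differentiation of its own. The p-values therefore rest on the spread among these libraries, which may be partly technical.

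Cells make cholesterol from acetyl-CoA through mevalonate, squalene and lanosterol, and make fatty acids from the same precursor. Both pathways are controlled by the transcription factors SREBP-1 and SREBP-2, which are made as membrane proteins of the ER. SCAP carries them to the Golgi, where proteases release the active factor, and the INSIG proteins hold SCAP in the ER when sterols are plentiful. The question here was how the transcripts of these regulators and enzymes stood in alpha cells whose ER was stressed.

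Libraries held between 17523442 and 28872269 counts. Levels are given as CPM, counts scaled to a common library size. HSPA5, the main ER chaperone, averaged 5270 ± 1022 CPM in tunicamycin samples and 845 ± 144 CPM in DMSO samples (SD, n = 6 each; log2 fold change 2.63 ± 0.16 SE, adjusted p = 3.75e-07, edgeR), and all 8 ER stress genes examined were higher, among them the stress transcription factor gene DDIT3 (2.13). All 7 alpha cell markers were counted in every library. None was called by edgeR or limma-voom (1 lower at an unadjusted p under 0.05), and DESeq2 called 1 lower, which was GCG. The glucagon gene GCG averaged 56820 ± 7797 CPM in tunicamycin and 74630 ± 14010 CPM in DMSO samples and was lower in 6 of 6 pairs (log2 fold change -0.39 ± 0.16, adjusted p = 0.176 by edgeR and 0.0374 by DESeq2). Markers of other cell types were present too, and 3 of 5 beta cell, 3 of 7 liver and 4 of 5 duct and acinar markers were called lower by edgeR. The share of all genes tested called lower was 3.29%. Limma-voom called 2, 3 and 4 of them lower, and by sign all markers of these lists were lower. With the sample number as a block, 6 of 7 liver and 5 of 6 mesenchyme markers were called lower, beside 8.4% of all genes tested. The summed liver markers ran from 385 to 639 CPM in tunicamycin and from 460 to 1040 CPM in DMSO samples, those of duct and acinar cells from 138 to 231 against 285 to 453 CPM, and those of beta cells from 213 to 440 against 284 to 686 CPM. The liver sums were mostly SERPINA1, which averaged 473.9 CPM in tunicamycin and 613.9 CPM in DMSO samples and was not called (adjusted p = 0.303, edgeR). None of the defining markers of these 3 lists was at 0 in any library. The part of these cells in the levels below was not tested, and in bulk RNA fewer cells of a type and less RNA per cell cannot be told apart.

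Promoter sequences are shown for the 3 genes that passed the test, and for SREBF2, which encodes SREBP-2 and holds the single match to a sterol regulatory element among the promoters of these genes. Each is the 250 bases before the annotated start from RefSeq (GRCh38.p14), written 5′ to 3′ on the gene's strand, with capitals marking matches to CCAAT (a box bound by NF-Y) or to the sterol element TCACNCCAC, on either strand. They are chr5:111512536-111512785 (minus strand) for STARD4, chr1:162790452-162790701 (plus strand) for HSD17B7, chr11:61817004-61817253 (minus strand) for FADS1 and chr22:41832855-41833104 (plus strand) for SREBF2.
STARD4: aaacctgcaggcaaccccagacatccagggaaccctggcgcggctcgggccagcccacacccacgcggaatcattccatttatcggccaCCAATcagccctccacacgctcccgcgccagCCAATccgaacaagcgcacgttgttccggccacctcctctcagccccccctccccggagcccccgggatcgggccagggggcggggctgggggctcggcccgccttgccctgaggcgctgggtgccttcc
HSD17B7: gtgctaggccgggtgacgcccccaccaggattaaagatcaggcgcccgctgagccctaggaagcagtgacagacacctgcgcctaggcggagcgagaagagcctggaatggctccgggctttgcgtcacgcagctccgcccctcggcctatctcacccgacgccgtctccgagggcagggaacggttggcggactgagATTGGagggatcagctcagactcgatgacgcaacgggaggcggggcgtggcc
FADS1: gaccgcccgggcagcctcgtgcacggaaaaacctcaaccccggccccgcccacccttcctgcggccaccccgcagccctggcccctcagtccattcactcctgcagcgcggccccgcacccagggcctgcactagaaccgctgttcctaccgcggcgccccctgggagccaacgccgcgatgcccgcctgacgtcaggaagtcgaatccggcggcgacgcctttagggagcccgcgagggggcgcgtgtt
SREBF2: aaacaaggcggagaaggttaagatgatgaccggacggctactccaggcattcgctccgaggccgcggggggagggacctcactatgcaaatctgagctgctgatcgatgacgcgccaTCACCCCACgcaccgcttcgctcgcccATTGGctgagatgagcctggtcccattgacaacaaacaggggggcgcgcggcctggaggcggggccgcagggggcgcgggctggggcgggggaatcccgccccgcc

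STARD4 holds CCAAT at -161 to -157 and at -130 to -126, counted back from the start. HSD17B7 holds it at -52 to -48 on the opposite strand, and in the FADS1 window these letters were not found. That window lies inside the span of FADS1 in GENCODE (61799625 to 61829318), so the annotations differ on its start. The window before the outermost GENCODE start was not searched. In SREBF2 the sterol element lies at -133 to -125, with a CCAAT on the opposite strand at -106 to -102. RefSeq promoters were matched for 26 of the 29 genes, 36 promoters in all, and not for FDFT1, SQLE and FASN. CCAAT occurred in 61.1% of these 36 promoters and in 32% of all 35116 promoters searched, the GC box GGGCGG in 88.9% against 42.6%, and the sterol element in 2.78% against 0.883%. Of the motifs known from the ER stress response, TGACGTG was found in the promoter of INSIG1 only (2.78% against 1.68%). TGATGNAA (3.14% of all promoters) and the ER stress response element, which is CCAAT followed after 9 bases by CCACG (0.074%), were found in none. The base composition of the promoters was not matched, and a match describes letters, not a bound site. A sterol element with other letters, or outside these windows, would be missed, so a promoter without a match may still hold one.

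Of the 29 genes, 3 were called higher with tunicamycin, namely the sterol carrier gene STARD4, the sterol enzyme gene HSD17B7 and the fatty acid desaturase gene FADS1. None was called lower in this fit (adjusted p under 0.05, quasi-likelihood test of edgeR, batch in the model). The 3 are 10.3% of the genes. Of all genes tested, 7.84% were called, 4.56% higher and 3.29% lower. At an unadjusted p under 0.05, 5 were higher and 2 lower, where 10.8% and 11.2% of all genes tested passed. DESeq2 called 4 higher and 1 lower, beside 6.37% and 5.86% of all genes tested, and limma-voom 3 higher and 0 lower, beside 4.63% and 3.03%. With the sample number as a block, 5 were called higher and 2 lower, while 17.3% of all genes tested were called, 8.92% higher and 8.4% lower. The 2 called lower with the block were MVK and FASN, and DESeq2 also called MVK lower. These shares of all genes tested also stand beside the counts by role and by list below. The median log2 fold change of the 29 genes was 0.02, and that of all genes tested was -0.01. By sign 17 were positive and 12 negative, 10 were under 0.1 in size, and 28 of 29 differed by less than 1.5-fold.

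**Figure D1:**
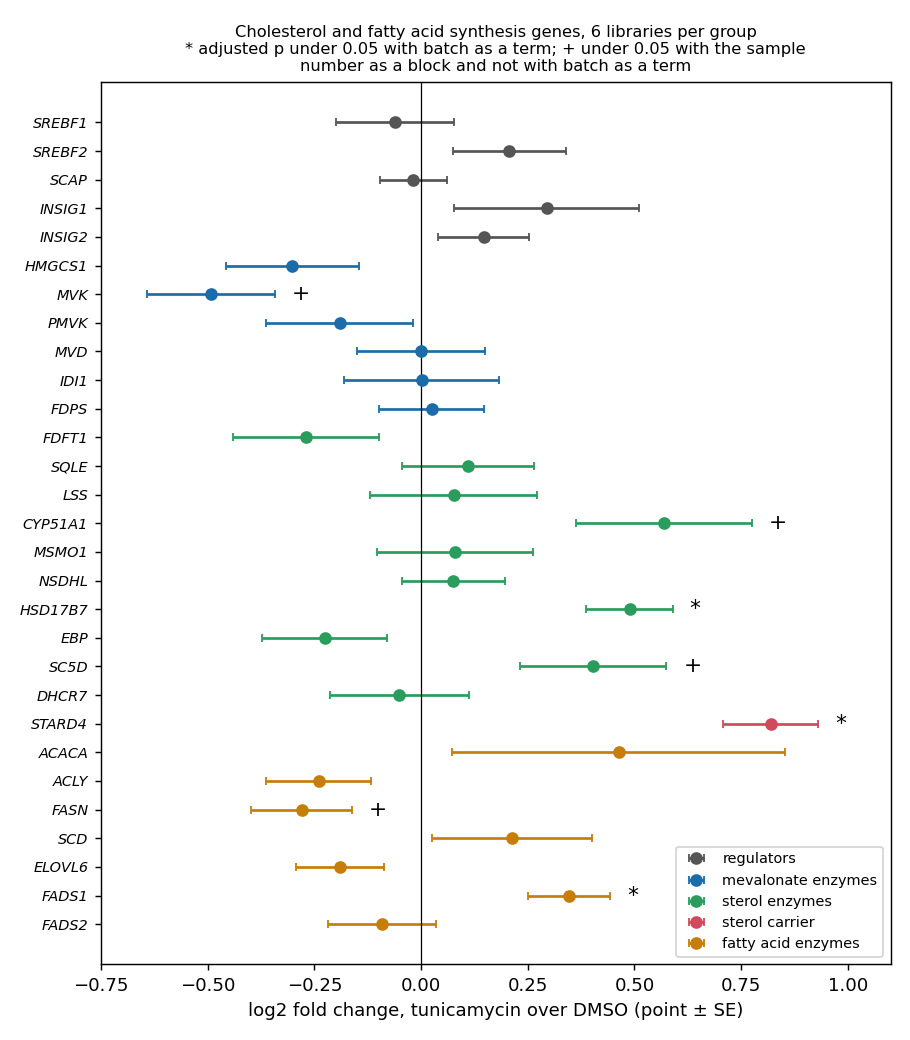
Log2 fold change, tunicamycin over DMSO (x axis), of each of the 29 genes (y axis), as point ± SE from the edgeR fit on 6 libraries per group, coloured by role. STARD4, HSD17B7 and FADS1 carry an asterisk (adjusted p under 0.05), MVK, CYP51A1, SC5D and FASN a plus sign (under 0.05 with the sample number as a block and not with batch as a term), and most others lie within 0.3 of 0.

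None of the 5 regulator transcripts passed the test, with or without the block, and their median log2 fold change was 0.15. SREBF1, the gene of SREBP-1, had 129.7, 155.2, 210.1, 140.9, 171.8 and 143.2 CPM in tunicamycin 1 to 6, against 147.8, 138.5, 201.3, 158.1, 200.7 and 145.1 CPM in DMSO 1 to 6. Sample 3 was the highest of both groups, and the groups overlapped throughout. The log2 fold change was -0.06 ± 0.14 (95% interval -0.38 to 0.25, adjusted p = 0.851, edgeR).

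SREBF2 had 400.3, 576.3, 395.6, 479.7, 472.8 and 448.7 CPM in tunicamycin 1 to 6, against 326.9, 453.9, 294.9, 453.4, 404.9 and 482.6 CPM in DMSO 1 to 6. It was higher with tunicamycin in 5 of the 6 equal-numbered pairs, with overlapping groups and a log2 fold change of 0.21 ± 0.13 (95% interval -0.09 to 0.51, adjusted p = 0.401, edgeR). Per length of merged exons, SREBF2 stood at 86.2 CPM per kb in tunicamycin and 75.1 CPM per kb in DMSO samples, above SREBF1 at 35.3 and 36.8 CPM per kb.

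SCAP, the escort protein, had 108.1, 104.3, 117.6, 149.9, 141.4 and 143 CPM in tunicamycin 1 to 6, against 105.3, 111.4, 111, 152.3, 164.1 and 132.3 CPM in DMSO 1 to 6. Batch 2 stood above batch 1 in both groups, and the log2 fold change was -0.02 ± 0.08 (95% interval -0.20 to 0.16, adjusted p = 0.925, edgeR). This is the narrowest interval among the regulators.

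INSIG1, itself a known target of SREBP, had 116.4, 315.9, 186.6, 165.4, 134.3 and 155.9 CPM in tunicamycin 1 to 6, against 108.2, 209.1, 127.9, 125.9, 160 and 135.2 CPM in DMSO 1 to 6. It was higher in 5 of 6 pairs, with sample 2 the highest of both groups (log2 fold change 0.29 ± 0.22, 95% interval -0.20 to 0.78, adjusted p = 0.471, edgeR). INSIG2, which holds SCAP in the same way, had 36.86, 36.93, 32.58, 37.96, 26.47 and 31.82 CPM in tunicamycin 1 to 6, against 32.24, 36.5, 34.83, 27.28, 29.64 and 23.68 CPM in DMSO 1 to 6. Its groups overlapped and its log2 fold change was 0.15 ± 0.11 (adjusted p = 0.462, edgeR).

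In the mevalonate pathway, 0 of 6 enzyme transcripts were called in either direction (edgeR; 1 lower at an unadjusted p under 0.05, by DESeq2 and with the block, and 0 by limma-voom), and the median log2 fold change was -0.09. The most changed was MVK, mevalonate kinase, which phosphorylates mevalonate (chromosome 12, 109573255 to 109598117, plus strand, GRCh38). It had 33.34, 49.12, 51.78, 37.76, 41.84 and 52.69 CPM in tunicamycin 1 to 6, against 52.74, 65.01, 53.16, 54.76, 88.82 and 62.1 CPM in DMSO 1 to 6. Every tunicamycin library lay below every DMSO library, although tunicamycin 6 and DMSO 1 were nearly equal. The log2 fold change was -0.49 ± 0.15 (adjusted p = 0.0619, edgeR), and the test was passed with the block (adjusted p = 0.0147), in DESeq2 (adjusted p = 0.0212), with upper-quartile scaling (0.044) and without tunicamycin 3 (0.0458). It was -0.34 in batch 1 alone and -0.64 in batch 2 alone (adjusted p = 0.751 and 0.122, edgeR). Groups that do not overlap, in either direction, were seen for 1 higher and 1 lower of the 29 genes (3.45% each), beside 2.47% and 1.3% of all genes tested.

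The first enzyme counted, HMGCS1, which makes HMG-CoA, averaged 404 ± 122 CPM in tunicamycin and 488 ± 127 CPM in DMSO samples (log2 fold change -0.30 ± 0.16, adjusted p = 0.284, edgeR), and was lower in 5 of 6 pairs. DMSO 2 was far above its group for it, at 743.4 CPM. PMVK, the next kinase after MVK, had a log2 fold change of -0.19 ± 0.17 (adjusted p = 0.574). For MVD, which makes the first isoprene unit, IDI1, which isomerises it, and FDPS, which joins isoprene units to farnesyl diphosphate, the values were 0.00, 0.00 and 0.02, with 95% intervals of -0.34 to 0.34, -0.41 to 0.41 and -0.25 to 0.30. Exon bases of FDPS overlap RUSC1-AS1 on the opposite strand for 28.9% of their length, and no source used here gives the strand setting of the counting, so its counts are uncertain.

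Among the 10 sterol enzymes 1 was called higher and none lower (edgeR; 3 higher and 0 lower at an unadjusted p under 0.05, 2 and 0 by DESeq2, 1 and 0 by limma-voom), with a median log2 fold change of 0.08. With the block 3 were called higher (30%), beside 8.92% of all genes tested, and the 1 called by edgeR is 10%, beside 4.56%. HSD17B7, a ketosteroid reductase that acts after lanosterol demethylation (chromosome 1, 162790702 to 162812817, plus strand), had 32.32, 40.57, 38.34, 31.72, 30.83 and 34.05 CPM in tunicamycin 1 to 6, against 24.01, 30.06, 21.5, 24.86, 23.5 and 23.81 CPM in DMSO 1 to 6. The groups did not overlap, although the lowest tunicamycin library (number 5) and the highest DMSO library (number 2) were close. HSD17B7 was 1.40-fold higher (log2 fold change 0.49 ± 0.10, adjusted p = 0.00885, edgeR), and its adjusted p stayed between 0.00557 and 0.0242 when each library was left out in turn. Within batches the value was 0.57 in batch 1 and 0.42 in batch 2 (adjusted p = 0.394 and 0.0825). Its pseudogene HSD17B7P2 had 1 to 9 counts per library.

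CYP51A1, the lanosterol demethylase (chromosome 7, 92112151 to 92134803, minus strand), was the sterol enzyme with the largest fold change. It had 309.8, 617.4, 321.5, 373.8, 315.7 and 349.2 CPM in tunicamycin 1 to 6, against 200.5, 391.4, 177.3, 244, 261 and 261.1 CPM in DMSO 1 to 6. It was higher in 6 of 6 pairs, and DMSO 2 alone among the DMSO libraries lay within the tunicamycin range. The log2 fold change was 0.57 ± 0.21 (adjusted p = 0.117, edgeR), which did not pass. With the block it was 0.58 ± 0.09 (adjusted p = 0.00106). The test was also passed in DESeq2 (adjusted p = 0.048), without DMSO 2 (0.75, adjusted p = 0.0341) and without both samples numbered 2 (0.56, adjusted p = 0.00321). Batch 1 alone gave 0.71 and batch 2 alone 0.44 (adjusted p = 0.695 and 0.0616, edgeR).

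SC5D, which introduces the C5 double bond of the sterol ring, had 167, 299.9, 213.7, 180.7, 165.2 and 169.7 CPM in tunicamycin 1 to 6, against 126.9, 227.9, 119.7, 127.2, 136.6 and 158.9 CPM in DMSO 1 to 6. As for CYP51A1, every pair was higher with tunicamycin and DMSO 2 lay within the tunicamycin range. Its log2 fold change of 0.40 ± 0.17 did not pass (adjusted p = 0.185, edgeR) and passed with the block (0.42 ± 0.09, adjusted p = 0.0104) and without both samples numbered 2 (adjusted p = 0.0324). It was 0.53 in batch 1 alone and 0.29 in batch 2 alone.

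The other 7 sterol enzymes passed in no setting tried. FDFT1, which makes squalene and so commits the pathway to sterols, had a log2 fold change of -0.27 ± 0.17 (adjusted p = 0.391, edgeR) and was lower in 5 of 6 pairs. EBP, the sterol isomerase, stood at -0.23 ± 0.15 (adjusted p = 0.404). SQLE, the squalene epoxidase, LSS, which closes the ring to lanosterol, MSMO1 and NSDHL, which remove methyl groups, and DHCR7, which makes cholesterol in the last step, lay between -0.05 and 0.11.

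STARD4, which carries cholesterol between membranes inside the cell and is a known SREBP target in mouse, had the largest change of the 29 genes (chromosome 5, 111496033 to 111512590, minus strand). It had 179.2, 230.5, 204, 132.9, 132.2 and 128.1 CPM in tunicamycin 1 to 6, against 86.32, 138.1, 105.6, 76.37, 82.59 and 76 CPM in DMSO 1 to 6. Batch 1 stood above batch 2 in both groups, and within each batch the lowest tunicamycin library was above the highest DMSO library. Means were 168 ± 43.4 CPM in tunicamycin and 94.2 ± 24.1 CPM in DMSO samples (SD, n = 6 each), a 1.76-fold rise (log2 fold change 0.82 ± 0.11, adjusted p = 0.000413, edgeR). The adjusted p stayed between 0.00023 and 0.00184 when each library was left out in turn. In batch 1 alone the value was 0.91 (adjusted p = 0.194) and in batch 2 alone 0.74 (adjusted p = 0.00407). The antisense gene STARD4-AS1 overlaps 2.24% of its exon bases and had 206 to 814 counts per library, with a log2 fold change of -0.28 ± 0.26 (adjusted p = 0.578, edgeR).

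**Figure D2:**
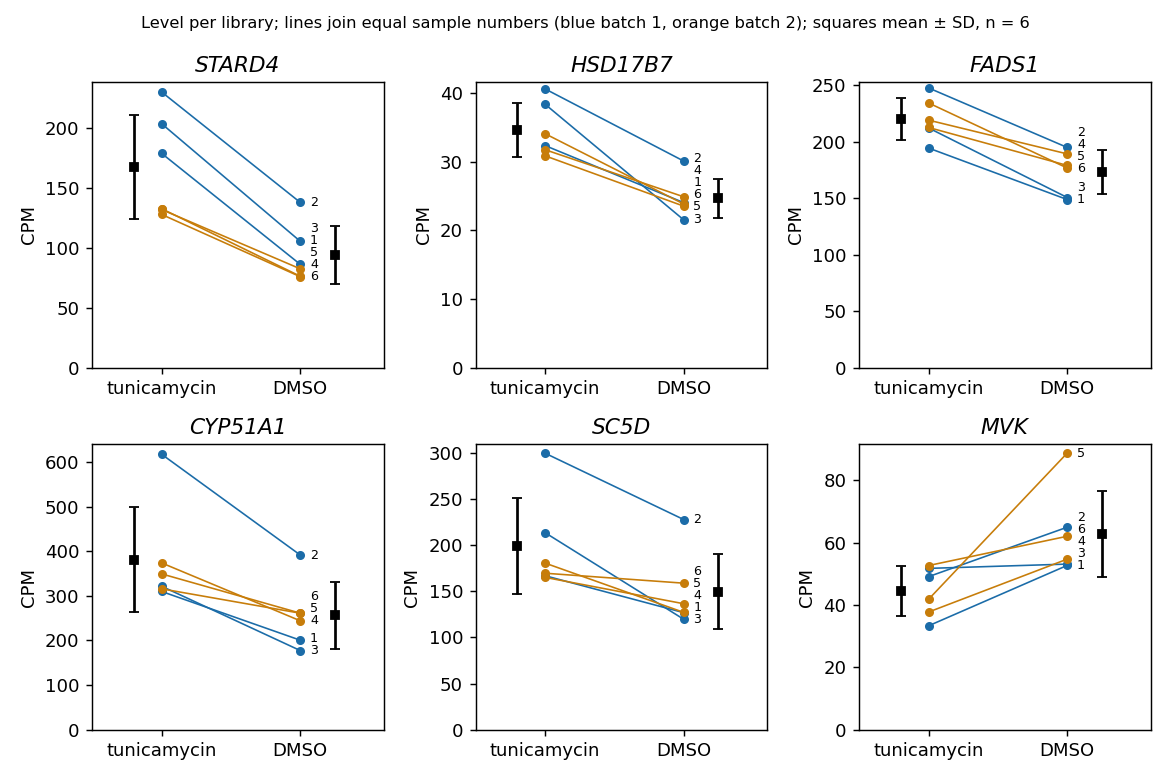
Level in CPM (y axis, from 0) of 6 genes in tunicamycin (left) and DMSO (right) libraries, with lines joining samples of equal number, blue for batch 1 and orange for batch 2, and squares for mean ± SD (n = 6); the digits at the right list the numbers in order of the DMSO level. All lines of STARD4, HSD17B7, FADS1, CYP51A1 and SC5D are lower at DMSO and all lines of MVK higher, and sample 2 is the top line of CYP51A1 and SC5D, at 617.4 and 299.9 CPM with tunicamycin.

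In fatty acid synthesis 1 of 7 enzyme transcripts was called higher and none lower (edgeR; 1 and 1 at an unadjusted p under 0.05, 1 and 0 by DESeq2, 1 and 0 by limma-voom, 1 and 1 with the block), with a median log2 fold change of -0.09. FADS1, the delta-5 desaturase of polyunsaturated fatty acids (chromosome 11, 61799625 to 61829318, minus strand), had 194.3, 247.5, 212.1, 219, 212.5 and 234.2 CPM in tunicamycin 1 to 6, against 148.7, 194.8, 150.5, 189.1, 178.9 and 176.6 CPM in DMSO 1 to 6. It was higher in 6 of 6 pairs, and DMSO 2 reached just above tunicamycin 1. The rise was 1.27-fold (log2 fold change 0.35 ± 0.10, adjusted p = 0.0411, edgeR; 0.00628 with the block). This call was close to the threshold. Leaving out any 1 of 10 of the 12 libraries, that is each except tunicamycin 1 and DMSO 2, gave adjusted p-values of 0.0601 to 0.0965. It was also lost without the filter (0.0691), without the batch term (0.0609) and without both samples numbered 1 (0.0746). Batch 1 alone gave 0.42 and batch 2 alone 0.29 (adjusted p = 0.59 and 0.176). Its neighbour FADS2, the delta-6 desaturase, overlaps it on the opposite strand over part of the exons and had a log2 fold change of -0.09 ± 0.13 (adjusted p = 0.732).

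FASN, the fatty acid synthase, averaged 466 ± 51.7 CPM in tunicamycin and 568 ± 88.7 CPM in DMSO samples and was lower in 5 of 6 pairs. Its log2 fold change of -0.28 ± 0.12 did not pass (adjusted p = 0.182, edgeR), while with the block the adjusted p was 0.0494. ACLY, which supplies cytosolic acetyl-CoA, had -0.24 ± 0.12 (adjusted p = 0.273) and ELOVL6, which elongates palmitate, -0.19 ± 0.10 (adjusted p = 0.313), each lower in 5 of 6 pairs. SCD, which makes oleate and was the most abundant of the 29 genes per length, stood at 219.7 CPM per kb in tunicamycin and 188.5 CPM per kb in DMSO samples (log2 fold change 0.21 ± 0.19, adjusted p = 0.556, edgeR).

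ACACA, the acetyl-CoA carboxylase that starts fatty acid synthesis, had the largest log2 fold change of this group and the lowest level of all 29 genes, at 1.08 CPM per kb in tunicamycin and 0.772 CPM per kb in DMSO samples. It had 8.091, 9.022, 9.151, 26.15, 5.201 and 14.05 CPM in tunicamycin 1 to 6, against 4.458, 13.99, 12.06, 7.995, 5.197 and 7.349 CPM in DMSO 1 to 6. Tunicamycin 4 stood well above all other libraries, the groups overlapped, and the log2 fold change of 0.46 ± 0.39 did not pass (adjusted p = 0.537, edgeR). The value was 0.10 without tunicamycin 4, and its sign turned in batch 1 alone (-0.20).

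Levels of the sterol genes also varied with the sample number. The mean level of the 16 mevalonate and sterol enzymes, as log2(CPM + 0.5) centred for each gene, was -0.24, 0.43, 0.05, -0.11, -0.17 and 0.12 in tunicamycin 1 to 6, against -0.22, 0.31, -0.30, -0.07, 0.17 and 0.05 in DMSO 1 to 6. The difference within pairs, tunicamycin minus DMSO, was 0.024 ± 0.226 (mean ± SD of 6 pairs), and the means of the 6 numbers spanned 0.594. The pooled difference covers -0.155 ± 0.283 for the 6 mevalonate enzymes and 0.132 ± 0.209 for the 10 sterol enzymes, each mean smaller in size than its SD. The mevalonate difference was -0.689 in pair 5 and ran from -0.215 to 0.105 in the other pairs. The sterol difference was positive in 5 of 6 pairs. Tunicamycin 2 was the highest library of its group for 17 of the 29 genes (58.6%), beside 24.8% of all genes tested, and DMSO 2 for 17 (58.6%), beside 21%. Both held for 13 genes (44.8%), beside 13.8%. In the same samples the summed alpha cell markers were the highest of each group, at 94800 CPM in tunicamycin 2 and 118000 CPM in DMSO 2. The summed mesenchyme markers were the lowest of each group, at 81.7 and 150 CPM, in group ranges of 81.7 to 597 CPM with tunicamycin and 150 to 1400 CPM with DMSO. The heart muscle markers were lowest there as well, at 7.07 and 6.07 CPM, in ranges of 7.07 to 1060 and 6.07 to 2020 CPM. So were the beta cell markers, at 213 and 284 CPM, the delta cell markers, at 1420 and 975 CPM in ranges of 1420 to 2890 and 975 to 5230 CPM, and the pluripotency markers, at 0.211 and 0.481 CPM. The liver markers were not the lowest there, at 612 CPM in tunicamycin 2 and 828 CPM in DMSO 2. Nor were the neural markers, at 355 and 378 CPM. Those of duct and acinar cells were lowest in tunicamycin 2 (138 CPM) and not in DMSO 2 (331 CPM). The alpha cell sums were mostly GCG, with TTR next at an average of 19790 CPM in tunicamycin and 21520 CPM in DMSO samples. The part of these cells in the levels was not tested. Without both samples numbered 2, 5 of the 29 genes were called higher and 0 lower (edgeR), beside 4.91% and 3.38% of the 17408 genes tested without them.

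**Figure D3:**
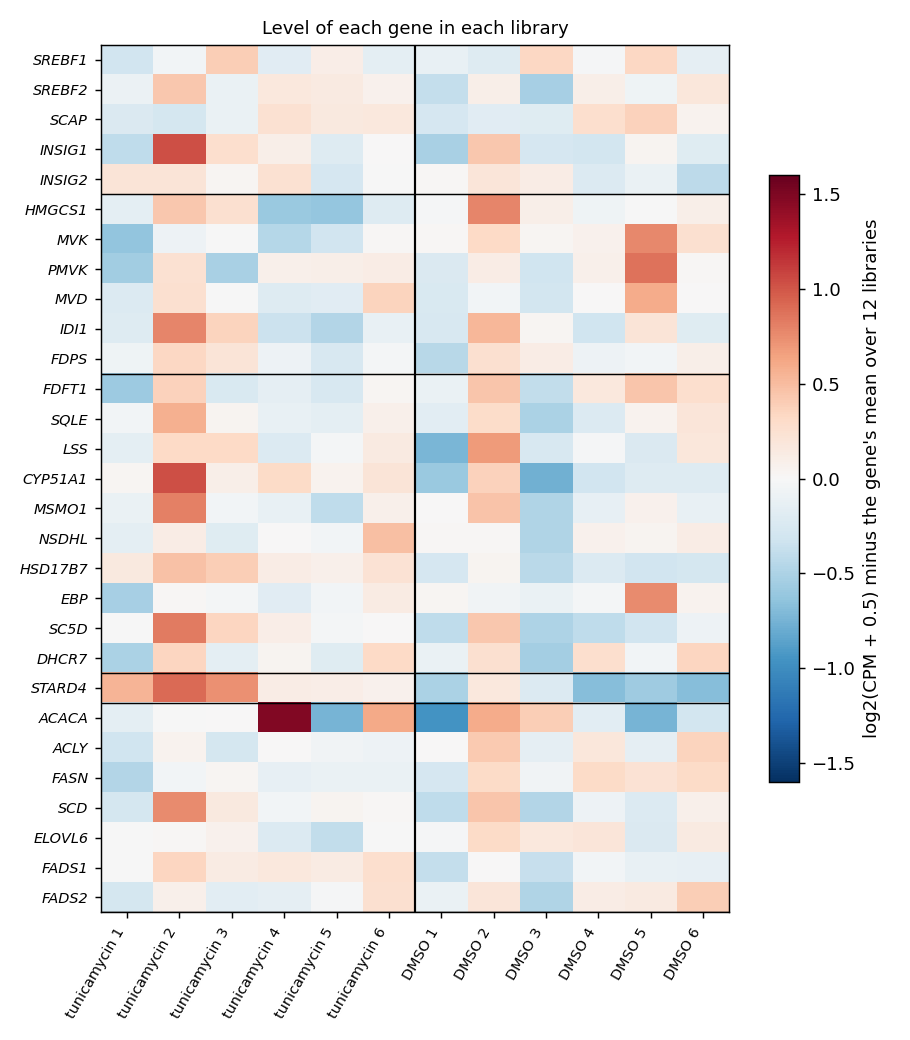
Level of each gene (rows, grouped as regulators, mevalonate enzymes, sterol enzymes, STARD4 and fatty acid enzymes) in each library (columns, tunicamycin left, DMSO right), as log2(CPM + 0.5) minus the gene's mean over the 12 libraries. Tunicamycin 2 and DMSO 2 form red columns across most sterol genes, STARD4 is red in tunicamycin and mostly blue in DMSO libraries, and tunicamycin 4 is the darkest cell of ACACA, at 26.15 CPM.

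The response of the 29 genes was also compared between batches. The interaction of treatment and batch was called for 0 of 17137 genes by edgeR (0%), DESeq2 and limma-voom. At an unadjusted p under 0.05 there were 169 genes (edgeR), fewer than chance alone would give, and none of the 29 was among them. Each batch held 3 samples of each group, so this test could miss a difference, and the absence of calls does not show equal responses. The difference nearest to the threshold was that of ACACA, at 1.36 on the log2 scale, batch 2 minus batch 1 (unadjusted p = 0.0733, adjusted p = 1, edgeR).

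Genes of neighbouring lipid pathways were examined as 8 lists with 126 genes, of which 124 were tested. Of these 10 (8.06%) were called higher and 3 (2.42%) lower, beside 4.56% and 3.29% of all genes tested, and with the block 19 (15.3%) and 12 (9.68%), beside 8.92% and 8.4%. Their median log2 fold change was 0.03. The 12 called genes named below kept their sign in each batch alone and in every other alternative. In the rest of cholesterol synthesis, 0 of 5 genes were called (edgeR; 2 lower at an unadjusted p under 0.05, 0 by DESeq2 and limma-voom, 1 lower with the block). Its most abundant genes were TM7SF2, a sterol reductase, at 105 ± 13.5 CPM in tunicamycin and 124 ± 19.3 CPM in DMSO samples (log2 fold change -0.24 ± 0.11, adjusted p = 0.208), and ERG28, whose yeast relative tethers sterol enzymes, at 64.6 ± 10.3 and 81.2 ± 13.7 CPM (-0.33 ± 0.13, adjusted p = 0.163; 0.0375 with the block).

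The list of isoprenoid genes held 1 called gene of 11. It includes the branch from farnesyl diphosphate to dolichol, the lipid on which N-glycans are built. NUS1, a subunit of the cis-prenyltransferase that makes the dolichol chain, averaged 85.8 ± 19.6 CPM in tunicamycin and 46.0 ± 8.7 CPM in DMSO samples (log2 fold change 0.88 ± 0.12, adjusted p = 0.000324, edgeR), a difference in size like that of STARD4. Its partner subunit DHDDS, named here after its value was seen, stood at 0.20 ± 0.12 (adjusted p = 0.363).

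The genes that mature or degrade SREBP, SCAP and INSIG were called in 0 of 11 cases (edgeR; 3 higher and 0 lower at an unadjusted p under 0.05, 0 by DESeq2 and limma-voom). With the block 3 were called higher, namely MBTPS1 and MBTPS2, the proteases that release SREBP, and FAF2, which acts in ER-associated degradation (log2 fold changes 0.31, 0.38 and 0.25, adjusted p = 0.0154 to 0.034). The most abundant of the list, PGRMC1, averaged 213 ± 28.8 CPM in tunicamycin and 220 ± 35.5 CPM in DMSO samples, and MBTPS1 200 ± 32.0 and 161 ± 23.0 CPM.

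In sterol uptake and transport 2 of 13 genes were called higher and none lower by edgeR (3 and 1 at an unadjusted p under 0.05, 2 and 0 by DESeq2 and by limma-voom, 4 and 1 with the block). NPC1, which exports cholesterol from lysosomes, averaged 45.9 ± 5.0 CPM in tunicamycin and 29.6 ± 7.7 CPM in DMSO samples (log2 fold change 0.64 ± 0.16, adjusted p = 0.0218, edgeR), and OSBP, an oxysterol-binding transfer protein of the ER and Golgi, 144 ± 11.5 and 105 ± 17.2 CPM (0.45 ± 0.11, adjusted p = 0.0227). The call of NPC1 was lost without tunicamycin 4, DMSO 1 or DMSO 5 (adjusted p = 0.0519 to 0.0575) and that of OSBP without tunicamycin 4, DMSO 1 or DMSO 4 (0.0517 to 0.0719). Among 11 genes of the sterol sensor LXR, sterol efflux and esterification, NR1H3, which encodes LXR alpha, was called lower, at 8.09 ± 2.16 CPM in tunicamycin and 12.1 ± 2.2 CPM in DMSO samples (-0.61 ± 0.15, adjusted p = 0.0221; 0.0548 to 0.062 without tunicamycin 5 or DMSO 4), and none was called higher by edgeR, DESeq2 or limma-voom (1 at an unadjusted p under 0.05 and with the block).

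Of 24 further genes of fatty acid synthesis and activation, 4 were called higher and none lower by edgeR (6 and 2 at an unadjusted p under 0.05, 4 and 1 by DESeq2, 4 and 0 by limma-voom, 5 and 1 with the block). The 3 with the smallest p were FADS3, a relative of FADS1, at 0.84 ± 0.14 (adjusted p = 0.00178), MLXIPL, the gene of the carbohydrate-sensing factor ChREBP, at 0.79 ± 0.13 (adjusted p = 0.00223), and ELOVL4, an elongase of very long chains, at 0.75 ± 0.14 on the log2 scale (adjusted p = 0.00547, edgeR). MLXIPL averaged 235 ± 27.7 CPM in tunicamycin and 138 ± 38.9 CPM in DMSO samples. Each of these calls was kept when any 1 library was left out.

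In glycerolipid and phospholipid synthesis 2 of 30 genes were called higher and none lower by edgeR (3 and 4 at an unadjusted p under 0.05 and with the block, 2 and 3 by DESeq2, 2 and 1 by limma-voom). The genes called higher were PEMT, which methylates phosphatidylethanolamine (log2 fold change 0.74 ± 0.14, adjusted p = 0.00612), and PTDSS1, a phosphatidylserine synthase (0.49 ± 0.10, adjusted p = 0.00659, edgeR). The largest fall of this list was that of DGAT2 (-0.96 ± 0.28, adjusted p = 0.0547 by edgeR, 0.00716 by DESeq2, 0.0347 by limma-voom and 0.000701 with the block). With the block PLIN2, PLIN3 and CHKA were also called lower (-0.56, -0.53 and -0.37, adjusted p = 0.00108 to 0.0245). AGPAT4 was called higher with the block (0.31, adjusted p = 0.0309). In fatty acid oxidation 1 of 19 was called higher and 2 lower by edgeR (1 and 4 by DESeq2, 1 and 1 by limma-voom, 2 and 4 with the block). The coactivator gene PPARGC1A was higher (0.70 ± 0.16, adjusted p = 0.0173; 0.0509 to 0.0571 without tunicamycin 4 or 5). HADH, a dehydrogenase of the beta-oxidation cycle (-0.43 ± 0.11, adjusted p = 0.0251), and ETFB, a subunit of the electron transfer flavoprotein (-0.52 ± 0.15, adjusted p = 0.0497), were lower. HADH lost its call without tunicamycin 4, tunicamycin 5, DMSO 1 or DMSO 5 (0.0595 to 0.0758), and ETFB without any 1 of 9 libraries, that is each except tunicamycin 3, DMSO 2 and DMSO 4 (0.0511 to 0.124).

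**Figure D4:**
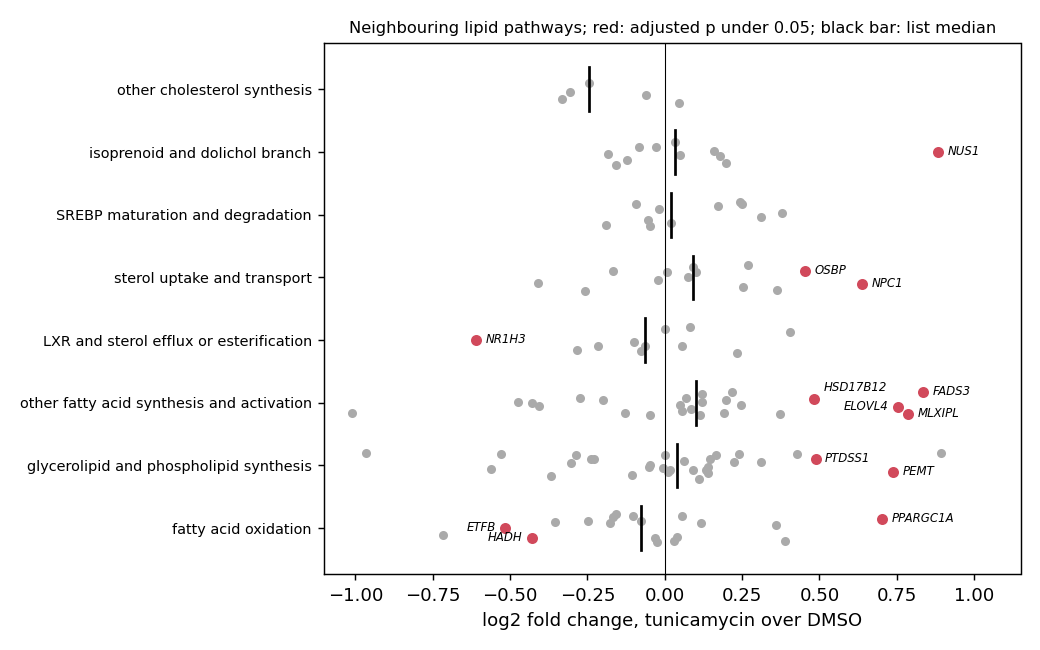
Log2 fold change, tunicamycin over DMSO (x axis), of the 124 tested genes in 8 lists of neighbouring lipid pathways (rows), with each point 1 gene, red and named where the adjusted p was under 0.05, and a black bar at the median of the list. NUS1 lies farthest right among the named genes, at 0.88, and NR1H3 farthest left, at -0.61.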

How the data were processed

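The deposited table holds raw read counts per gene symbol, as whole numbers with no normalization by the authors. Per the labels' protocols, total RNA came from Qiagen RNeasy Mini columns and libraries from the NEBNext Ultra II kit. Reads went through cutadapt 4.4, HISAT2 2.1.0 and featureCounts 2.0.6 on GRCh38, per the submitters' processing notes. Neither annotation nor strand setting is given in the sources used here, which leaves overlapping and antisense genes uncertain.

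Counts were filtered with filterByExpr of edgeR 4.0.16 (R 4.3.3), which kept 17137 genes, scaled with TMM and tested with the quasi-likelihood test, two-sided, with batch as a term. P-values were adjusted with the Benjamini-Hochberg method over all genes tested, with a threshold of 0.05. CPM uses the scaled library sizes, and 95% intervals use 9 residual degrees of freedom. Alternatives were DESeq2 1.42.0, limma-voom (limma 3.58.1), upper-quartile scaling, no filter, no batch term, a block for the sample number, each library left out in turn and each batch alone. The further alternatives, leaving out both samples numbered 1 or both numbered 2, were chosen after seeing the data.

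Samples of equal number were treated as pairs in the block, and their resemblance was clear in batch 1 only. Deviations of equal numbers from the group and batch means had correlations across genes of 0.529, 0.632, 0.58, 0.127, 0.194 and 0.18 (numbers 1 to 6). Numbers 4 and 5 correlated higher with another number (0.252 and 0.272). With deviations from the group means alone, they correlated best with their equal number (0.391 and 0.418, others at most 0.298). Number 6 then did not (0.127 against 0.208). Pairing within batch 2 is therefore uncertain, and the pair counts and block results rest on it. The labels call the numbers biological replicates and do not say what an equal number in both groups marks. No 2 libraries of a group agreed within sampling noise (chi-square per gene of 10.9 to 99.5).

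The 29 genes and the lists of neighbouring genes and markers were chosen with earlier results of these data known. Values in every sample are given for the regulators, the called genes and the most changed gene of each role. SC5D was added after its values were seen. Of each neighbouring list the 3 called genes with the smallest p are named, or the 2 most abundant where none was called. Outside this rule, MBTPS2, FAF2, DGAT2, PLIN2, PLIN3, CHKA and AGPAT4 were named for their calls with the block, after their values were seen. Some further genes of the pathway are not reported here. Gene positions and exon lengths are from GENCODE release 29 (GRCh38), promoters from RefSeq (GRCh38.p14).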

Additional observations from a re-analysis of the deposited data

Results flagged for a closer look

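In 8 of the 58 sets of 6 libraries examined, which are 29 genes in each of the 2 groups, 1 library stood far from the other 5, measured on log2 levels by its gap to the nearest one as a share of the whole range. Levels are printed here as CPM, on which these shares differ. Chance alone gives such a gap in about 1 of 20 sets of normally distributed values. The 58 sets share the same libraries and are not independent, so 8 of 58 was not tested against that rate. With tunicamycin, sample 2 was the highest for CYP51A1, at 617.4 CPM with the next at 373.8 CPM, and for SQLE, at 266.6 CPM with the next at 190.8 CPM. Tunicamycin 1 was the lowest for FASN, at 368.7 CPM with the next at 465.2 CPM. With DMSO, sample 5 was the highest for PMVK at 102.7 CPM, for MVD at 176.3 CPM and for EBP at 65.27 CPM, where the next libraries had 60.53, 117.3 and 39.78 CPM. DMSO 2 was the highest for HMGCS1, at 743.4 CPM with the next at 458.9 CPM. DMSO 3 was the lowest for NSDHL, at 24.13 CPM with the next at 34.23 CPM. None of these 8 genes passed the test between the groups in the edgeR fit with batch.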

How the results depend on the processing

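Of 638 comparisons of the 29 genes with their main value over 22 alternatives, 555 kept direction and side of the threshold, 18 lost a call, 11 gained one and 54 turned in sign. The calls of STARD4 and HSD17B7 held in every alternative except batch 1 alone and, for HSD17B7, batch 2 alone, and where FADS1 held is given with its values. The median log2 fold change of all genes ran from -0.04 to 0 over the alternatives. Lower counts limit ACACA most, with 111 counts in its lowest library against at least 408 for the other genes.

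The 1344 genes called became 2096 with DESeq2, 2967 with the replicate block, 57 in batch 1 alone, 654 in batch 2 alone (3 samples a group), 1030 without both samples numbered 1, 1444 without both numbered 2 and 791 to 1399 without 1 library each, lowest without tunicamycin 4. The 3 genes of the 29 called higher became 5 with the replicate block, 5 without both samples numbered 2, 0 in batch 1 alone, 1 in batch 2 alone and 2 to 4 without 1 library each. The 0 called lower became 1 with DESeq2, 1 with upper-quartile scaling, 2 with the replicate block and 0 to 1 without 1 library each.

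All signs that turned belong to genes called in no setting, and the cause was not tested. MVD was -0.004 with DESeq2, -0.001 with limma-voom, -0.029 with upper-quartile scaling, -0.005 without the filter, -0.014 without the batch term, -0.213 in batch 2, and -0.009 and -0.062 without both samples numbered 1 and 2. IDI1 was -0.003, -0.005, -0.028 and -0.004 in the first 4 of these, 0 with the replicate block, -0.219 in batch 2, and -0.02 and -0.048 without both samples numbered 1 and 2. FDPS was -0.003 with upper-quartile scaling, -0.113 in batch 2 and -0.035 without both samples numbered 1, where DHCR7 was 0.001. In batch 1 SREBF1 was 0.032, SCAP 0.022, DHCR7 0.038, ACACA -0.203 and FADS2 0.003. In batch 2 SQLE was -0.082, LSS -0.009 and MSMO1 -0.076. Without 1 library each, the log2 fold change ran from -0.164 to 0.014 for SREBF1, -0.051 to 0.017 for SCAP, -0.082 to 0.124 for MVD, -0.14 to 0.1 for IDI1, -0.073 to 0.073 for FDPS, -0.006 to 0.192 for SQLE, -0.054 to 0.286 for LSS, -0.096 to 0.177 for MSMO1, -0.01 to 0.117 for NSDHL and -0.173 to 0.036 for DHCR7.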
